A study of Rattus norvegicus with 16 samples.

Results

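Mast cell genes were followed in rat skin after its nerves had been cut. The set held 7 genes, chosen by name: the granule proteases Cpa3, Cma1, Tpsb2 and Tpsab1, the IgE receptor chains Ms4a2 and Fcer1a, and the histamine-forming enzyme Hdc. They were read by 8 probesets out of 20826 that named 1 gene, so that they made up 7 of the 14217 genes measured. Between 14-day denervated, 7-day denervated and naïve skin, 0 of the 7 genes passed limma's test (adjusted p under 0.05), which 10.5% of all genes did at 7 days against naïve, 23.5% at 14 days against naïve and 18.9% at 14 days against 7 days. The rats themselves differed widely, and the mast cell genes went up and down together from rat to rat.

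The groups were 5 rats sampled 14 days after surgery, 5 rats 7 days after it and 6 naïve rats, with 1 Affymetrix rat expression array for the skin of each. All were adult female Sprague-Dawley animals. In the operated rats, both the dorsal and the lateral cutaneous nerves of T9, T10, L1 and L2 were, by the labels, ligated and cut on the left, with a piece resected, and T11 was left intact. The study's methods give other nerves for the caudal strip, which was not sampled. The sample came from the rostral (T9/10) strip, which lost its sensory and autonomic supply. Intact T11 axons can sprout into such skin over these days, and fibers in the samples were not measured here. Naïve rats had no surgery, so denervation and the surgery itself cannot be told apart. Every sample also held the cutaneous trunci muscle, whose own nerve supply was not cut. Skin and muscle markers were high in each array, with Krt14 (a basal keratinocyte keratin) at 12.6 to 13.2 and Acta1 (skeletal muscle actin) at 13.4 to 14.0 on the log2 scale of robust multi-array averaging (RMA), the unit of all levels given here.

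Mast cells are long-lived immune cells of connective tissue, and in skin many lie in the dermis beside vessels and nerve endings. Their granules hold proteases bound to the proteoglycan serglycin, along with histamine, and are released when antigen cross-links IgE on its high-affinity receptor. Neuropeptides from sensory fibers can also make skin mast cells degranulate, and the cytokine stem cell factor, acting on the receptor Kit, keeps them alive. In whole skin, fewer mast cells and less mast cell RNA per cell cannot be told apart.

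The promoters of the 4 proteases are shown as examples of genes that shared the rat-to-rat pattern described further on, which the other members shared as well. Each sequence runs from 250 bases before to 50 bases after the start used in the RefSeq promoter set (GRCr8 assembly). It is written 5′ to 3′ on the strand of the gene. For Cpa3 and Fcer1a that start lies within the RefSeq gene span and not at its edge. Capitals mark GATAA or its reverse complement TTATC, the core bound by GATA factors, a family that includes the mast cell factor GATA2.
Cpa3 promoter (chr2:104673188-104673487, minus strand): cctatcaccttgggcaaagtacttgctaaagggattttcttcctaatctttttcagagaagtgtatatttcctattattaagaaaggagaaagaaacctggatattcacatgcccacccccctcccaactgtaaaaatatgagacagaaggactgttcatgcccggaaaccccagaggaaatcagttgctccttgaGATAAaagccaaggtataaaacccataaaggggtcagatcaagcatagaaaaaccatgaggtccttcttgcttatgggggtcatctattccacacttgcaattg
Cma1 promoter (chr15:33390084-33390383, minus strand): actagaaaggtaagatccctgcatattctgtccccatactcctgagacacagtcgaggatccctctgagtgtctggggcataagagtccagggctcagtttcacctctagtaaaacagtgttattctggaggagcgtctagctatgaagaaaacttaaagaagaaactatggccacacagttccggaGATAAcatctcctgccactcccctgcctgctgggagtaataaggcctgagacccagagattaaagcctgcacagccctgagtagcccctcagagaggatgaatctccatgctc
Tpsab1 promoter (chr10:14867253-14867552, minus strand): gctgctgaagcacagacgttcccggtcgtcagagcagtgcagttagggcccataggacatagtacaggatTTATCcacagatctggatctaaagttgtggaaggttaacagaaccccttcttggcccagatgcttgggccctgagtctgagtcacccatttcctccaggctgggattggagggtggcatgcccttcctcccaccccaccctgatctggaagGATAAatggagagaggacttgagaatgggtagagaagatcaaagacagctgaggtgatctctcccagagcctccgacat
Tpsb2 promoter (chr10:14886060-14886359, plus strand): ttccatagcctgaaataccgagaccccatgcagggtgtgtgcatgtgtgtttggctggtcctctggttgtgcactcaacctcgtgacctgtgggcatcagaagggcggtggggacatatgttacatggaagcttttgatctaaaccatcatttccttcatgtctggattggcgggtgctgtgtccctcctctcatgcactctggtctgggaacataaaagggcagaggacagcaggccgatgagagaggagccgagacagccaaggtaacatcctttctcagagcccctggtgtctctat

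GATAA or TTATC stood in 4 of the 6 members with a promoter in the RefSeq table, against 26.5% of all 33469 promoters of that length. It began at -54 from the start in Cpa3, at -63 in Cma1, at -180 and -29 in Tpsab1 and at -93 in Fcer1a, and these letters were not in the windows of Tpsb2 and Hdc. The E box CANNTG, which reads the same on both strands, was in 4 of 6 members, against 72.1% of all promoters. The ETS core GGAA (or TTCC) was in 6 of 6 members, against 95.8%. No match to GATAA overlapped a match to CANNTG. A match is a match of letters only, and promoter binding was not measured. Ms4a2 was not among the promoters used.

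Cpa3 encodes carboxypeptidase A3, a granule exopeptidase found almost only in mast cells. It was read at 8.45, 8.22, 9.02, 9.06 and 8.59 in the 14-day rats and at 8.72, 10.0, 9.52, 8.85 and 6.75 in the 7-day rats. In naïve rats its lowest, median and highest values were 6.56, 8.74 and 9.98. The 14-day values lay within the range of both other groups, and the 7-day and naïve groups each held rats at both extremes. Its mean was 8.67 ± 0.36 at 14 days (SD, n = 5), 8.77 ± 1.25 at 7 days (n = 5) and 8.67 ± 1.23 in naïve skin (n = 6). The log2 difference was 0.10 at 7 days against naïve (95% confidence interval -1.16 to 1.35, limma adjusted p = 0.923) and 0.00 at 14 days against naïve (-1.26 to 1.25, adjusted p = 0.997). As a fold, the 7-day value was 1.07 times naïve, with an interval of 0.449 to 2.55. A change within that interval was not excluded by these rats. The smallest change that the test would have called was not worked out.

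Cma1, the mast cell granule protease also named Mcpt5, followed the same rats. Its values were 8.51, 8.34, 9.07, 8.81 and 8.52 at 14 days and 8.51, 9.72, 9.20, 8.22 and 7.50 at 7 days. Naïve rats ran from 7.78 through a median of 8.61 to 9.96. The highest naïve rats stood above every 14-day rat, and the lowest stood below every one of them. The log2 differences were -0.23 at 14 days (-1.11 to 0.65, adjusted p = 0.703) and -0.25 at 7 days (-1.12 to 0.63, adjusted p = 0.709), both against naïve.

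The tryptases Tpsb2 and Tpsab1 are trypsin-like granule proteases that work as tetramers held together by heparin. Tpsb2 was read at 6.73, 6.85, 6.82, 6.70 and 7.10 at 14 days, and at 6.62, 7.51, 6.59, 6.22 and 6.06 at 7 days. Its naïve values ran from 6.17 through 6.59 to 7.20. Here 14-day skin had the highest mean of the 3 groups, yet its values lay inside the spread of the others, with log2 differences of 0.20 against naïve (adjusted p = 0.549) and 0.24 against 7 days (adjusted p = 0.488). Tpsab1 was read at 5.83, 5.74, 5.85, 5.87 and 5.74 at 14 days and at 5.72, 6.38, 6.23, 5.70 and 5.58 at 7 days. Its naïve values ran from 5.45 through 5.85 to 6.77, which enclosed all denervated rats. The log2 differences were -0.11 at 14 days (adjusted p = 0.711) and 0.01 at 7 days (adjusted p = 0.986) against naïve. The 2 tryptases are close relatives, and whether their probesets share RNA was not tested.

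**Figure D1:**
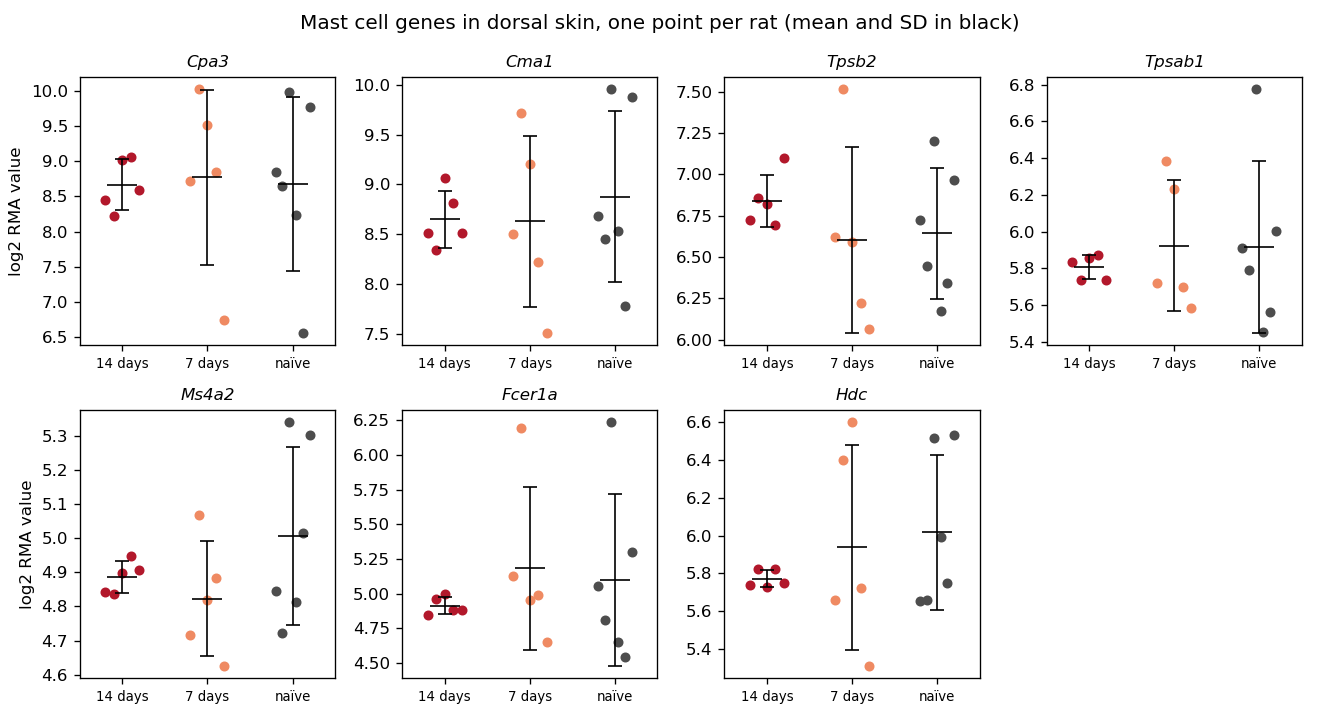
Each panel plots the log2 RMA value (vertical axis, own scale in each panel) of 1 mast cell gene in 14-day, 7-day and naïve rats, 1 point for each rat, with the group mean and SD in black. The 14-day rats sit close together inside the naïve range for all 7 genes, while the 7-day and naïve rats spread widely.

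Fcer1a and Ms4a2 encode the chains of the high-affinity IgE receptor that mark mast cells and basophils, the alpha chain that binds IgE and the signal-amplifying beta chain. Both were dim, with means over all arrays of 5.07 and 4.91 beside 4.25 at the 5th percentile of all genes. Fcer1a was read at 4.84, 4.96, 4.99, 4.88 and 4.88 at 14 days, at 5.12, 6.19, 4.95, 4.99 and 4.65 at 7 days, and in naïve rats at 4.54, 4.93 and 6.23 as the lowest, median and highest. A single 7-day rat and a single naïve rat stood above 6, and no 14-day rat reached 5. The log2 differences were -0.19 at 14 days (adjusted p = 0.656) and 0.08 at 7 days (adjusted p = 0.862) against naïve.

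Ms4a2 was read at 4.84, 4.84, 4.90, 4.95 and 4.91 at 14 days, at 4.72, 5.07, 4.82, 4.88 and 4.63 at 7 days, and in naïve rats at 4.72, 4.93 and 5.34. It gave the lowest adjusted p of the 7 genes at 7 days, with a log2 difference of -0.18 against naïve (-0.42 to 0.05, adjusted p = 0.277). At 14 days the difference was -0.12 (adjusted p = 0.435). Weighting the arrays by their quality called Ms4a2 lower at both times (adjusted p = 0.0391 at 7 days and 0.0283 at 14 days), and leaving out naïve replicates 1 and 2 together called it lower at 7 days (adjusted p = 0.0467). Of all 14217 genes, the weights called 1711 lower at 7 days and 3411 at 14 days. Leaving out those naïve rats called 2334 lower at 7 days. The 2 probesets of Ms4a2 did not run together, with Pearson's r of 0.08 over the 16 arrays. The first (1369399_at) was at 5.70 and 5.67 in naïve rats 3 and 6 and at 5.33 in 7-day rat 2, while the second (1370783_a_at) kept between 4.68 and 5.32 in all arrays.

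Hdc, histidine decarboxylase, makes histamine from histidine. It was read at 5.74, 5.82, 5.73, 5.82 and 5.75 at 14 days, at 5.66, 6.40, 6.60, 5.72 and 5.31 at 7 days, and in naïve rats at 5.66, 5.87 and 6.53. Its 14-day values spanned the narrowest range of the 3 groups, with an SD of 0.05 beside 0.54 at 7 days and 0.41 in naïve skin. The log2 differences were -0.24 at 14 days (-0.72 to 0.23, adjusted p = 0.432) and -0.08 at 7 days (adjusted p = 0.830). With array weights Hdc was called lower at 14 days (adjusted p = 0.0267), as were 3411 of all 14217 genes.

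Over the set, 0 of 7 genes passed limma's test at 7 days against naïve, where 10.5% of all genes did (7.85% higher and 2.66% lower). At 14 days against naïve it was 0 of 7, where 23.5% of all genes passed (8.95% higher and 14.6% lower), and at 14 days against 7 days 0 of 7, where 18.9% passed (8.86% higher and 10.1% lower). The lowest unadjusted limma p of the 7 genes was 0.117, 0.288 and 0.340 in these comparisons. The median log2 difference of the 7 genes was -0.12 at 14 days and -0.04 at 7 days, both against naïve, and -0.10 for 14 days against 7 days, beside 0.02, -0.02 and -0.01 over all genes. For none of the 7 genes were 2 groups without overlap, which held for 10.3%, 4.66% and 20.7% of all genes in the same comparisons.

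**Figure D2:**
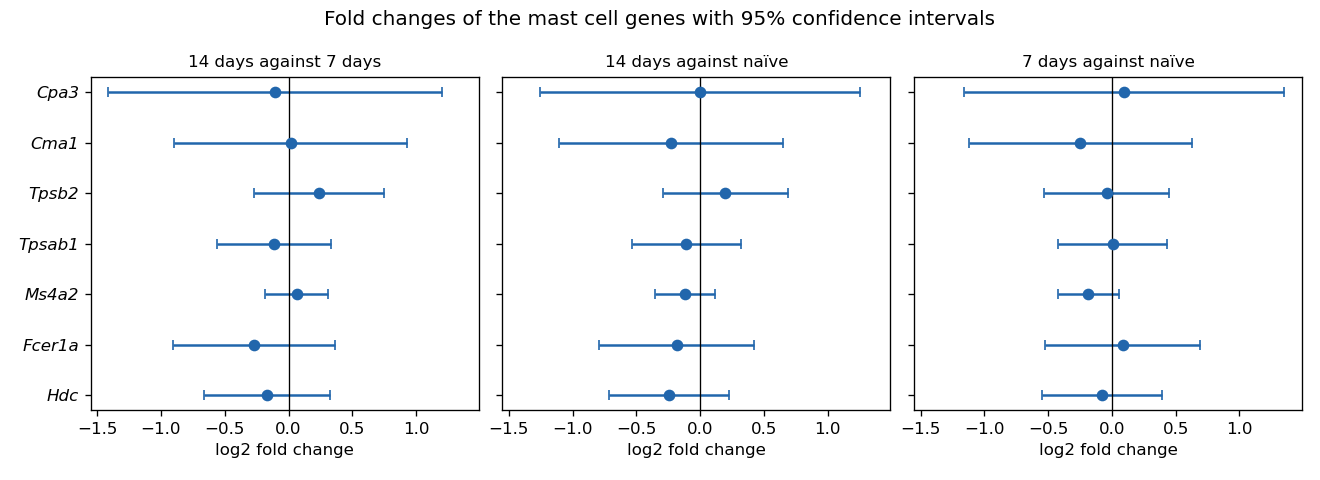
Points give the log2 fold change (horizontal axis) of each mast cell gene (vertical axis) for 14 days against 7 days, 14 days against naïve and 7 days against naïve, and bars its 95% confidence interval from the limma fit. All 21 intervals cross 0, and the widest is that of Cpa3.

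The spread between rats was large beside that of other genes. The SD within groups of Cpa3 was larger than for 99.4% of all genes, that of Cma1 than for 97.5% and that of Fcer1a than for 93.6%, while Ms4a2 stood at 61.4%. The median SD within groups was 0.41 over the 7 genes and 0.16 over all genes. Group membership took a median of 5.40% of the variance of the 7 genes, beside 36.3% over all genes. Because the fit takes 1 spread for all groups, the tight 14-day rats share the error of the others.

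The 14-day rats were the most alike. Their SD was the lowest of the 3 groups for 7 of 7 mast cell genes, as it was for 67.7% of all genes. Their range lay inside the naïve range for 7 of 7 genes (35.1% of all genes) and inside the 7-day range for 7 of 7 (22.6% of all genes). The 7-day range lay inside the naïve range for 2 of 7, Tpsab1 and Fcer1a, where 26.1% of all genes showed this. These shares describe genes that run together and are not separate observations.

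The same rats were high or low for most of the set. Naïve rats 3 and 6 and 7-day rat 2 were above their group's mean for 7 of 7 genes. Below it for 7 of 7 were 7-day rat 5 and naïve rats 2 and 4, and naïve rat 5 was below it for 6. A score, the mean over the 7 genes of each value minus the gene's mean over all arrays, ran from -0.16 to 0.07 at 14 days, from -0.77 to 0.77 at 7 days and from -0.62 to 0.87 in naïve skin. On the deviations from the group means, the 21 pairs of members had Pearson's r of 0.61 to 0.94 (median 0.76) and Spearman's rho of 0.54 to 0.90 (median 0.71) over 16 arrays. The highest r was that of Cpa3 with Cma1, 0.94, and the lowest that of Cpa3 with Ms4a2, 0.61. Without naïve rat 3 and 7-day rat 2, the farthest from the median, r ran from 0.43 to 0.92 with a median of 0.67. All genes of an array share its tissue piece and its hybridization, so these correlations are a description.

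Markers of other cells moved with the score from rat to rat, also on the deviations from the group means. Pearson's r with the score was 0.75 for the list of macrophage and myeloid markers, 0.74 for adipocyte and for Schwann cell markers, 0.66 for fibroblast and for T cell markers and 0.64 for keratinocyte markers. It was 0.44 for neutrophils, 0.43 for endothelium, 0.10 for muscle, 0.10 for basophils, -0.16 for melanocytes and -0.22 for the hair follicle. The basophil and Schwann cell scores rested on 3 measured genes each. For basophils these included the dim genes Mcpt8 and Il4 (means 3.77 and 4.65), so that r says little about basophils. Without naïve rat 3 and 7-day rat 2, r was 0.50 for Schwann cell markers, 0.10 for endothelium and -0.22 for muscle, and 0.64 for macrophage, 0.68 for adipocyte, 0.66 for fibroblast, 0.57 for T cell and 0.72 for keratinocyte markers. Naïve rat 5, low for Cpa3, was also the lowest array for fibroblast markers (-2.26) and for adipocyte markers (-1.80), and 7-day rat 5, low as well, was the lowest for keratinocyte markers (-1.29). Naïve rat 3 was the highest for adipocyte markers (0.97). The part of these markers in the mast cell values was not tested.

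The tissue of the groups differed in other ways as well. The hair follicle score lay between 1.91 and 2.02 in the 14-day rats and between -0.72 and 1.74 in the 7-day rats. In naïve rats 1 and 2 it was 1.93 and 2.12, and in naïve rats 3 to 6 it was between -4.19 and -3.90. The actin probeset for the 3′ end minus that for the middle was taken as a sign of RNA quality. It was 0.05 to 0.28 at 14 days and 0.20 to 0.29 at 7 days. In naïve rats 1 and 2 it was 0.18 and 0.23, and in naïve rats 3 to 6 it was 0.52 to 1.20, highest in naïve rat 5. Its r with the mast cell score was -0.24. The GAPDH probeset for the 3′ end minus that for the 5′ end was 0.29 to 0.34 in naïve rats. Of 9 muscle markers, 7 were lower at 14 days than in naïve skin, as were 14.6% of all genes. Their score was -0.73 to -0.29 at 14 days. In naïve rats 1 and 2 it was 0.04 and -0.51, and in naïve rats 3 to 6 it was 0.67 to 0.86.

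**Figure D3:**
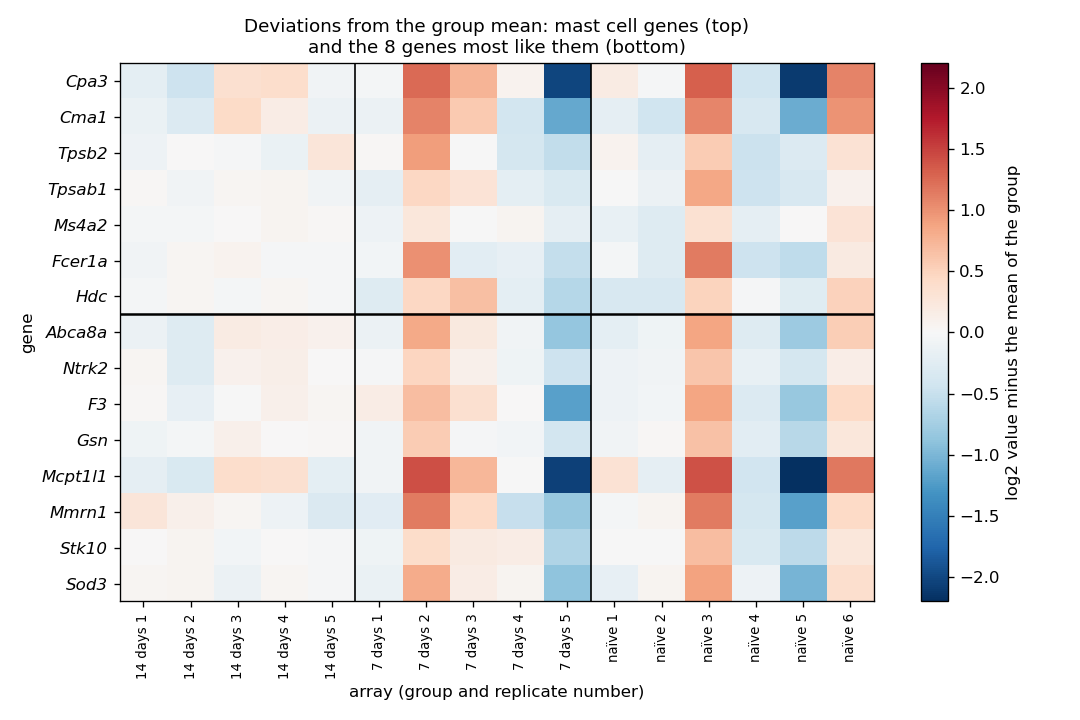
Colors give the log2 value of a gene minus the mean of its group, for the 7 mast cell genes (top rows) and the 8 genes most like them (bottom rows) in each of the 16 arrays, with 14-day, 7-day and naïve arrays from left to right. Naïve 3 and 6 and 7-day 2 are red and 7-day 5 and naïve 5 are mostly blue through both blocks, and the 14-day columns are pale.

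The genes most like the set were ranked by Pearson's r with the members' score, on the deviations from the group means over 16 arrays. Among 14210 other genes the median absolute r was 0.29, and 168 genes had r above 0.8. The 8 highest were Abca8a (a lipid transporter of the ABC family, r = 0.98), Ntrk2 (the receptor TrkB for brain-derived neurotrophic factor, 0.95), F3 (tissue factor, which starts coagulation, 0.95), Gsn (gelsolin, which severs actin filaments, 0.95), Mcpt1l1 (0.94), Mmrn1 (multimerin 1, 0.93), Stk10 (a serine/threonine kinase, 0.93) and Sod3 (extracellular superoxide dismutase, 0.93). Without naïve rat 3 and 7-day rat 2, r stayed between 0.85 and 0.96 for these 8 genes. None of the 8 passed the test in any of the 3 comparisons. Stk10 at 7 days against naïve came nearest, with a log2 difference of 0.59 and an adjusted p of 0.0736.

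Mcpt1l1, annotated as like the chymase mast cell protease 1, was the 1 other protease of mast cells among the 8. It was read at 7.97, 7.84, 8.55, 8.53 and 7.95 at 14 days and at 8.28, 9.78, 9.09, 8.36 and 6.30 at 7 days. Its naïve values ran from 6.26 through 8.57 to 9.91. As with Cpa3, the lowest rats were naïve 5 and 7-day 5 and the highest were naïve 3 and 7-day 2. The log2 differences against naïve were -0.34 at 14 days (adjusted p = 0.707) and -0.15 at 7 days (adjusted p = 0.888).

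Beyond the members, 7 lists of related genes held 88 measured genes. Of these 13 were called at 14 days against naïve (14.8%, against 23.5% of all genes), 13 at 7 days against naïve (14.8%, against 10.5%) and 15 at 14 days against 7 days (17.0%, against 18.9%). The calls of single lists that follow are small counts beside these shares, and no list was tested against another or against all genes. The 14-day calls against naïve also rest on the model: with hair follicle scores added as a covariate 0 of the 13 were kept (adjusted p 0.051 to 0.910), and with the muscle score 0 of 13 (0.0599 to 0.893). Most calls over all genes were lost as well. Of all 14217 genes, 3343 were called without a covariate, 286 with the hair follicle score and 232 with the muscle score.

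Of the list of other mast cell proteases, 9 of 20 genes were measured, and 0 rose and 0 fell at either time against naïve. The highest by limma's statistic was Ctsc, the lysosomal enzyme that activates granule proteases, with log2 differences of 0.81 at 14 days (adjusted p = 0.0547) and 0.59 at 7 days (adjusted p = 0.189). The lowest were Mcpt8 at 14 days (-0.10, adjusted p = 0.197) and Mcpt3 at 7 days (-0.16, adjusted p = 0.0773). At 14 days against 7 days, Mcpt3 rose by 0.17 (adjusted p = 0.0493), a call that 14 of 16 fits with 1 array left out did not keep and that quantile normalization ended (0.086), and Mcpt10 was the lowest (-0.03, adjusted p = 0.709). Mcpt3, Mcpt8 and Mcpt10 had group means between 3.73 and 4.25, among the lowest values of these arrays. The list's median log2 difference was 0.01 at 14 days and -0.10 at 7 days against naïve.

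Of the granule matrix and mediator genes, 17 of 19 were measured. At 14 days 2 rose and 1 fell against naïve (17.6% called, against 23.5% of all genes), and at 7 days 2 rose and 0 fell (11.8%, against 10.5%). Ndst1, which sulfates heparan and heparin chains, rose by 0.45 at 14 days (adjusted p = 0.00763), and Chst11, a chondroitin sulfotransferase, by 0.21 (adjusted p = 0.0395). Ptgs1, the constitutive cyclooxygenase, fell by 0.45 (adjusted p = 0.0232), and its brightest probeset alone gave -0.75. At 7 days Cd63, a tetraspanin of granule and lysosome membranes, rose by 0.84 (adjusted p = 0.00689) and Alox5, which starts leukotriene synthesis, by 0.73 (adjusted p = 0.0357), and Chst11 was the lowest (-0.13, adjusted p = 0.213). At 14 days against 7 days Chst11 (0.34) and Ndst1 (0.40) rose and Cd63 (-0.59) and Glce (-0.24), a heparin-modifying epimerase, fell. Quantile normalization ended the calls of Glce (-0.13, adjusted p = 0.195) and Cd63 (-0.47, adjusted p = 0.0768). Srgn, which encodes serglycin, was at 8.09 ± 0.18, 8.31 ± 0.21 and 7.84 ± 0.63 at 14 days, at 7 days and in naïve skin (adjusted p = 0.453 at 14 days and 0.198 at 7 days). Hpgds, the prostaglandin D2 synthase of mast cells, was at 6.90 ± 0.14, 6.95 ± 0.48 and 7.18 ± 0.45 (adjusted p = 0.353 and 0.487). Srgn and Hpgds, like Kit and Kitlg, were named after their values had been seen.

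Among genes of IgE receptor signaling, 15 of 16 were measured, and at 7 days 3 rose and 1 fell (26.7% called, against 10.5% of all genes). Fcer1g, the gamma chain that the IgE receptor shares with Fc receptors of macrophages, was read at 9.93, 10.6, 10.6, 10.8 and 10.1 at 7 days, while naïve rats ran from 7.66 through 9.01 to 10.2. It rose by 1.47 on the log2 scale (adjusted p = 0.0121), with 1 naïve rat above 10. Lyn, a kinase that starts signaling from the receptor, rose by 0.43 (adjusted p = 0.00735) and the inositol phosphatase Inpp5d by 0.62 (adjusted p = 0.0257), and Stim1, the calcium sensor of the endoplasmic reticulum, fell by 0.46 (adjusted p = 0.0119). At 14 days 1 rose and 2 fell (3 of 15, against 23.5%). The calcium channel Orai1 fell by 0.68 (adjusted p = 0.0219) and Stim1 by 0.36 (adjusted p = 0.0232). Lyn was lower at 14 days than at 7 days (-0.29, adjusted p = 0.0332), and the highest gene of that comparison was Grap2 (0.15, adjusted p = 0.0894). The brightest probeset alone gave 0.78 at 7 days against naïve and -0.54 at 14 days against 7 days for Lyn, and -0.68 at 14 days against naïve for Stim1. Without naïve replicates 4 and 5, the 14-day value of Stim1 was -0.23 and was not called.

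Fyn, a kinase of the same family as Lyn, was the gene of this list that rose at 14 days, by 1.29 (adjusted p = 0.0317). It was read at 8.61, 8.45, 8.60, 8.60 and 8.27 at 14 days, against 8.19 and 8.54 in naïve rats 1 and 2 and 5.66 to 7.48 in naïve rats 3 to 6. The naïve rats thus split as they did for the hair follicle score. With that score as a covariate the log2 difference of Fyn was 0.30, with its brightest probeset 0.78 and without naïve replicates 4 and 5 0.68, none of them called. The same covariate, which ended all 13 calls at 14 days against naïve, moved those of Orai1 (-0.084), Stim1 (-0.12), Ptgs1 (-0.15) and Stat5b (-0.037) by over 1.5 times.

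Of growth factor and transcription factor genes, 13 of 14 were measured, with 7.69% called at 14 days and 15.4% at 7 days against naïve. At 7 days 1 rose, Runx1 (1.05, adjusted p = 0.00598), a factor of blood cell development also used in hair follicles, and 1 fell, the dim gene Gata1 (-0.18, adjusted p = 0.0413). The Gata1 call was lost in 12 of 16 fits with 1 array left out. Quantile normalization ended it as well (-0.13, adjusted p = 0.0708). At 14 days 0 rose and 1 fell, Stat5b (-0.63, adjusted p = 0.0339), which carries cytokine signals, and the highest was the cytokine receptor chain Csf2rb (0.26, adjusted p = 0.0745). At 14 days against 7 days Zeb2, a repressor that mast cells and macrophages both express, fell by 0.78 (adjusted p = 0.0342), and the highest was Gata1 (0.13, adjusted p = 0.107). Kit was at 6.06 ± 0.09, 5.77 ± 0.23 and 5.61 ± 0.51 at 14 days, at 7 days and in naïve skin. Its log2 differences against naïve were 0.45 (adjusted p = 0.105) and 0.16 (adjusted p = 0.611) at 14 and 7 days. Those of Kitlg, which encodes stem cell factor, were 0.27 (adjusted p = 0.169) and 0.22 (adjusted p = 0.311). Kit, which melanocytes also express, was higher in naïve rats 1 and 2 (6.19 and 6.17) than in naïve rats 3 to 6 (5.01 to 5.76).

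Of surface receptors 14 of 21 genes were measured, with 4 rising (28.6%) and 0 falling at each time against naïve, where 8.95% of all genes rose at 14 days and 7.85% at 7 days. Il1rl1 encodes ST2, the receptor for the alarmin IL-33 on mast cells and other leukocytes. It was read at 6.91, 6.09, 6.09, 7.73 and 6.55 at 14 days and at 7.84, 8.77, 7.82, 8.71 and 7.93 at 7 days, and naïve rats ran from 5.54 through 5.91 to 5.94. The 3 groups did not overlap. Il1rl1 rose by 2.42 at 7 days (5.35-fold, adjusted p = 0.000342) and by 0.88 at 14 days (1.84-fold, adjusted p = 0.0319) against naïve, and was lower at 14 days than at 7 days by a log2 difference of -1.54 (adjusted p = 0.00465). It has several probesets, and the brightest alone gave 4.55, 1.46 and -3.09 in these 3 comparisons, all called.

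C5ar1, the receptor for complement C5a, rose by 1.28 at 7 days (adjusted p = 0.00115) and 0.59 at 14 days (adjusted p = 0.0265) and was lower at 14 days than at 7 days (-0.69). Cd300a, an inhibitory receptor, rose by 0.41 at 7 days (adjusted p = 0.0167), and Enpp3, an ectoenzyme known as CD203c on human basophils and mast cells, by 1.11 (adjusted p = 0.021), and both were lower at 14 days than at 7 days (-0.44 and -0.93). The fall of Enpp3 (adjusted p = 0.0377) was not kept under quantile normalization (adjusted p = 0.0698). It was also lost in 7 of 16 fits with 1 array left out. At 14 days Tacr1, the receptor for substance P, rose by 0.30 (adjusted p = 0.00238) and the chemokine receptor Ccr2 by 0.58 (adjusted p = 0.0383). With hair follicle scores as a covariate these values were 0.27 (adjusted p = 0.051) and 0.72 (adjusted p = 0.143), neither called. Tacr1 was read at 5.74, 5.75, 5.84, 5.77 and 5.87 at 14 days, at 5.41 to 5.57 at 7 days and at 5.37 to 5.60 in naïve skin, so that 14-day rats were above all others. The lowest genes of the list against naïve were Itgae at 14 days (-0.25, adjusted p = 0.114) and Ccr3 at 7 days (-0.18, adjusted p = 0.397).

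Of the cytokine and neuropeptide genes, 12 of 14 were measured, with 1 rising (8.33%) and 0 falling at each time against naïve. Il33, which encodes the ligand of ST2 and is made by epithelial and stromal cells, was read at 9.11, 8.43, 8.71, 8.66 and 8.71 at 14 days and at 9.33, 9.90, 10.1, 10.4 and 9.22 at 7 days. Its naïve values ran from 7.59 through 8.26 to 9.46. Every 7-day rat was above every 14-day rat. Il33 rose by 1.37 at 7 days against naïve (2.59-fold, adjusted p = 0.009) and was lower at 14 days than at 7 days (-1.07, adjusted p = 0.0241). Its rise at 7 days was not called without naïve replicates 4 and 5, nor with only the 2 compared groups fitted. Il33 and its receptor thus both had their highest mean at 7 days. At 7 days against naïve 0 of the 7 mast cell genes passed the test, beside 10.5% of all genes. The other calls were dim genes, Il4 at 14 days against naïve (0.19, adjusted p = 0.0285) and Il13 at 14 days against 7 days (0.25, adjusted p = 0.0356). Quantile normalization ended both calls (0.13 and 0.16). The lowest against naïve were Tslp at 14 days (-0.09, adjusted p = 0.454) and Il3 at 7 days (-0.17, adjusted p = 0.0981).

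**Figure D4:**
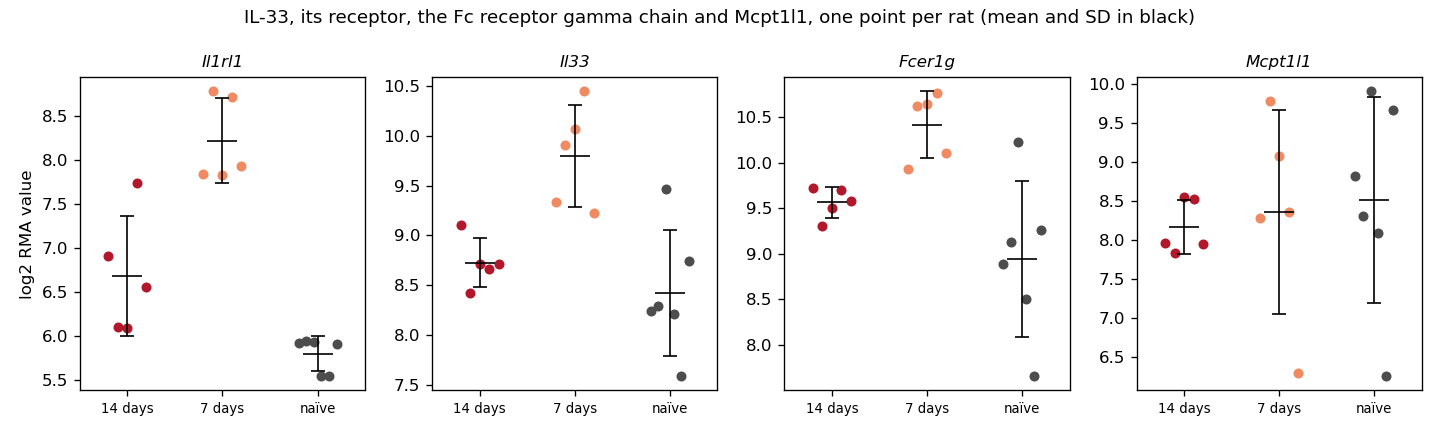
Log2 RMA values (vertical axis, own scale in each panel) of Il1rl1, Il33, Fcer1g and Mcpt1l1 in 14-day, 7-day and naïve rats, 1 point for each rat, with the group mean and SD in black. All 7-day rats lie above all naïve rats for Il1rl1, whereas Mcpt1l1 spans about the same range in both.

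Histamine receptors and histamine-degrading enzymes were all measured, 8 of 8. Against naïve, 0 rose and 0 fell at 7 days and 1 rose at 14 days, Aoc1, the diamine oxidase that breaks down histamine outside cells, with a log2 difference of 0.13 (adjusted p = 0.0409) at group means of 4.38 and 4.25. Aoc1 was also higher at 14 days than at 7 days (0.17, adjusted p = 0.0218), and quantile normalization ended both calls (0.085 and 0.076). The receptor Hrh1 was the lowest at 7 days (-0.12, adjusted p = 0.18) and the oxidase Maob the highest (0.29, adjusted p = 0.461). At 14 days the lowest was Aldh2 (-0.12, adjusted p = 0.242), and Maob was the lowest at 14 days against 7 days (-0.34, adjusted p = 0.361).

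Several of the genes that rose at 7 days are also expressed by macrophages, among them Fcer1g, C5ar1, Cd300a, Lyn and Alox5. Of the macrophage and myeloid markers, 11 of 14 rose at 7 days and 3 of 14 at 14 days against naïve. Of all genes, 7.85% and 8.95% rose. The median log2 differences of the markers were 1.67 and 0.89. Their score lay between -0.03 and 0.32 at 14 days, between 0.32 and 1.06 at 7 days and between -1.95 and 0.56 in naïve skin. The lowest naïve scores were those of rats 5 and 4 (-1.95 and -1.56). The part of this score in those calls was not tested. The median log2 differences against naïve, at 14 and at 7 days, were 0.16 and 0.18 for the granule and mediator list, 0.09 and 0.13 for IgE receptor signaling, 0.01 and 0.09 for growth and transcription factors, 0.21 and 0.26 for surface receptors, 0.03 and -0.08 for cytokines and 0.03 and -0.04 for histamine receptors and enzymes, beside 0.02 and -0.02 over all genes.

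Summed over the 3 comparisons, 41 calls were made for 27 genes of these lists. Leaving out any single array kept 16 of them: Il1rl1, Il33, C5ar1, Cd63, Fcer1g, Lyn, Runx1 and Stim1 at 7 days against naïve, Ndst1 and Tacr1 at 14 days against naïve, and Il1rl1, C5ar1, Cd300a, Chst11, Ndst1 and Tacr1 at 14 days against 7 days. The other 25 were lost without 1 or more arrays, with adjusted p of at most 0.107. Cd300a at 7 days was lost without 7-day rat 4 (adjusted p = 0.0505), Enpp3 at 7 days without 7-day rats 3 or 4 (0.0606 and 0.0637), Orai1 at 14 days without naïve rats 4 or 6 or 14-day rat 3 (0.0502 to 0.053) and Stim1 at 14 days without naïve rats 4 or 6 or 14-day rat 5 (0.0505 to 0.0572). Il33 at 14 days against 7 days was lost without 7-day rats 2, 3 or 4 or 14-day rats 2 or 5 (0.0516 to 0.0617), and Il1rl1 at 14 days against naïve without naïve rats 4, 5 or 6 or 14-day rats 1, 4 or 5 (0.0547 to 0.0703). Without naïve rats 4 and 5 together, 8 of the 13 calls at 7 days against naïve were lost. These were Alox5, Cd300a, Enpp3, Gata1, Il33, Inpp5d, Lyn and Stim1. A fit of only the 2 compared groups also ended 8 of the 13, with Fcer1g lost and Lyn kept. Of all genes, 391 and 295 were called in these 2 fits, against 1494 in the main fit.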

How the data were processed

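The authors deposited log2 values made by RMA from 16 Affymetrix rat expression arrays (5 at 14 days, 5 at 7 days, 6 naïve). The submitters' processing notes name R 3.0.1, and no genome build is given in the sources used here. The number of arrays limits the precision, and no scan dates were used. The labels show separate animals.

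From 31099 probesets, 57 controls, 9780 without a gene and 436 with several genes were left out. The other 20826 probesets were reduced to the median for each of 14217 genes (4525 had more than 1), with symbols updated by Entrez identifier (14167 matched RefSeq GRCr8). One linear model over all arrays was fitted with limma 3.58.1 in R 4.3.3, with Benjamini-Hochberg adjustment over all genes and calls at an adjusted p under 0.05. No filter on dim values was used. The fit was tested on simulated data.

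Named were all 7 members, the called, highest and lowest genes of 7 lists in each comparison, and the 8 genes most like the members. The members and lists were chosen with earlier results of these data known. Alternatives covered the probeset rule, dim genes, scaling, array weights, the moderation, the groups in the model, the replicate number, hair follicle and muscle scores, the threshold and left-out arrays.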

Additional observations from a re-analysis of the deposited data

Results flagged for a closer look

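Among 58 genes, 174 groups were checked for a single array far from the rest, and 9 were found, none in the 21 groups of the 7 mast cell genes. Chance alone gives about 1 in 20 groups. High arrays were 14-day replicate 1 for Alox5 (6.32, next 6.06), naïve replicate 3 for Alox5 (6.61, next 5.81), naïve replicate 4 for Hrh1 (4.55, next 4.37), naïve replicate 5 for Mcpt8 (4.03, next 3.85), 14-day replicate 4 for Runx1 (8.33, next 7.94) and 7-day replicate 2 for Srgn (8.68, next 8.27). Low arrays were 14-day replicate 5 for Itgae (5.90, next 6.19), 14-day replicate 2 for Stat5b (6.70, next 7.21) and 14-day replicate 2 for Ntrk2 (6.94, next 7.23).

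For 15 genes of the lists, and for none of the 7 members, the effects at the 2 times differed when tested as 14 days minus 7 days in limma. The difference was above 0 for Aoc1 (0.17), Chst11 (0.34), Il13 (0.25), Mcpt3 (0.17), Ndst1 (0.40) and Tacr1 (0.30). It was below 0 for C5ar1 (-0.69), Cd300a (-0.44), Cd63 (-0.59), Enpp3 (-0.93), Glce (-0.24), Il1rl1 (-1.54), Il33 (-1.07), Lyn (-0.29) and Zeb2 (-0.78).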

How the results depend on the processing

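The count of mast cell genes called was 0 of 7 in each comparison. It stayed at 0 under all 32 alternatives, with these exceptions. Array weights gave 1 lower gene at 7 days (Ms4a2) and 2 lower genes at 14 days (Ms4a2 and Hdc) against naïve. Leaving out naïve replicates 1 and 2 together gave 1 lower gene at 7 days (Ms4a2). Of all 14217 genes, array weights called 1711 lower at 7 days and 3411 at 14 days, beside 378 and 2071 in the main fit. Leaving out those naïve replicates called 2334 lower at 7 days. Without any single array the count of mast cell genes was 0. Leaving out dim genes (mean under 5) removed Ms4a2 from the test.

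Signs of uncalled values turned under some alternatives. With hair follicle scores in the model, the 14-day values against naïve were 0.12 for Cma1, 0.082 for Cpa3, 0.023 for Fcer1a, 0.13 for Hdc, 0.12 for Ms4a2, -0.067 for Ctsc, 0.16 for Hpgds, 0.015 for Itgae, -0.12 for Kit, -0.068 for Kitlg and 0.055 for Tslp, and the 7-day values 0.16 for Hdc, 0.016 for Tpsb2, 0.044 for Hpgds and -0.20 for Kit. With the muscle score, they were 0.039 for Fcer1a, 0.077 for Ms4a2, -0.071 for Ctsc, -0.083 for Kit and 0.018 for Tslp at 14 days, and -0.032 for Cpa3, 0.017 for Hdc, 0.022 for Tpsb2 and -0.11 for Kit at 7 days. Array weights gave -0.26 for Cpa3, -0.085 for Fcer1a and -0.052 for Tpsab1 at 7 days. Without naïve replicates 4 and 5, 7-day values were -0.54 for Cpa3, -0.17 for Fcer1a, -0.20 for Tpsab1 and -0.12 for Kit, and the 14-day value of Srgn was -0.0999. Without naïve replicates 1 and 2, Cpa3 was 0.031 at 14 days and Tpsab1 -0.025 at 7 days. Subtracting array medians gave -0.067 for Tpsab1 at 7 days and 0.025 for Mcpt10 at 14 days against 7 days. Quantile normalization gave 0.053 for Cpa3 at 14 days, -0.023 for Tpsab1 at 7 days, and 0.035 for Cpa3 and -0.028 for Ms4a2 at 14 days against 7 days. The brightest probeset gave -0.081 for Ms4a2 in that comparison. The cause was not tested.

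Leaving out 1 array each time, 7-day values against naïve ran from -0.52 to 0.035 for Cma1, -0.32 to 0.60 for Cpa3, -0.17 to 0.31 for Fcer1a, -0.24 to 0.078 for Hdc, -0.11 to 0.18 for Tpsab1, -0.27 to 0.095 for Tpsb2 and -0.60 to 0.37 for Mcpt1l1. At 14 days they ran from -0.43 to 0.26 for Cpa3, -0.30 to 0.042 for Fcer1a and -0.20 to 0.062 for Tpsab1, and at 14 days against 7 days from -0.27 to 0.29 for Cma1 and -0.61 to 0.21 for Cpa3.

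Of 15 same-numbered pairs of rats, 8 correlated above 0.1, with r from -0.55 to 0.58. Differently numbered pairs ran from -0.57 to 0.59, so these values cannot tell whether the numbers pair the rats. With the replicate number as a block, 0 of 7 members were called in each comparison, and values turned to 0.22 for Cpa3 at 14 days and 0.024 for Hdc, 0.025 for Tpsb2 and 0.083 for Mcpt1l1 at 7 days. Of the list calls, the block ended 10 of 13 at 14 days and 3 of 13 at 7 days against naïve, and 3 of 15 at 14 days against 7 days. Calls over all genes were 863, 1266 and 2314 with the block, against 1494, 3343 and 2690 without it, at 7 days, at 14 days and at 14 days against 7 days.

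Over all alternatives, calls over all genes ran from 295 to 5040 at 7 days, from 232 to 6983 at 14 days and from 553 to 4854 at 14 days against 7 days. Subtracting array medians gave 951 higher and 1492 lower genes at 7 days, against 1116 and 378, and 2079 and 1005 at 14 days against 7 days, against 1260 and 1430. Of the 41 calls in the lists, 7 held under all alternatives and 0 reversed: Il1rl1, C5ar1, Cd63 and Runx1 at 7 days against naïve, and Il1rl1, Chst11 and Tacr1 at 14 days against 7 days. Ms4a2 and Fcer1a lie near background, which limits the differences that arrays resolve.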
